A study of Mus musculus with 8 samples.

Results

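Transcripts of 8 enzymes that make serine and pass its one-carbon unit to folate were examined in mouse inner medullary collecting duct cells under hypertonic stress. The 8 genes were taken by name from a table of 15288 genes: Phgdh, Psat1 and Psph for serine synthesis, Shmt1 and Shmt2 for the serine-to-glycine step, Mthfd1 for cytosolic folate, and Mthfd1l and Mthfd2 for mitochondrial folate. All 8 passed the filter on low counts that left 14024 genes for testing. The cells are the IMCD line, labelled as kidney duct cells. The control group (library numbers 1 to 4) was grown to confluency and then held for 12 h in serum-free DMEM, and the NaCl group (library numbers 5 to 8) was held for the same 12 h in that medium with 100 mmol NaCl added. The labels give no volume for the NaCl. All libraries come from this single line, and nothing in the labels says whether the libraries of a group were separate cultures, so p-values measure the spread between these libraries, which may be technical.

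Cells make serine from the glycolytic intermediate 3-phosphoglycerate: PHGDH oxidises it, PSAT1 adds an amino group and PSPH removes the phosphate. SHMT1 in the cytosol and SHMT2 in mitochondria then split serine into glycine and a one-carbon unit carried by tetrahydrofolate. In mitochondria MTHFD2 oxidises that unit and MTHFD1L releases it as formate, and in the cytosol the trifunctional MTHFD1 takes formate up again for purine and thymidylate synthesis. PHGDH, PSAT1, SHMT2 and MTHFD2 are known targets of the stress transcription factor ATF4.

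Depth was 35.29 to 47.57 M counts per library (M, mega), and levels are given as CPM, the counts per M counts after scaling of the library totals by edgeR (TMM). Control replicate 1 had the highest total and NaCl replicate 5 the lowest, each apart from the other libraries of its group. Counts of the 8 enzymes ran from 1269 to 20053 per library, so that counting error was at most 2.8% of a value. Of 14 collecting duct markers, 12 were tested, and the summed level of all 14 was 1056 to 1363 CPM in control and 1952 to 2195 CPM in NaCl libraries. The water channel gene Aqp2, a defining marker, had at most 0.0725 CPM in control and 0.364 CPM in NaCl libraries. The higher sum came mostly from Cdh16, at 549 to 713 CPM in control and 1319 to 1477 CPM in NaCl libraries, and from Pax2, at 70.7 to 83.8 and 178 to 195 CPM. Ranges of the 2 groups overlapped for Krt8, Krt18, Krt19 and Epcam, and the NaCl libraries were lower for Hoxb7 (68.0 to 76.2 and 56.4 to 65.0 CPM) and Gata3 (7.49 to 9.31 and 5.72 to 6.48 CPM). The 6 fibroblast markers summed to 3128 to 3635 CPM in control and 2820 to 3254 CPM in NaCl libraries, with Col1a1 at 2317 to 2652 and 1951 to 2309 CPM. Among them Pdgfrb (34.5 to 43.1 and 57.6 to 65.1 CPM) was higher in NaCl libraries without overlap, and Col3a1 lay at 329.5 to 450.1 and 414.7 to 527.3 CPM. The 3 of 4 proximal tubule markers with a row summed to 162 to 205 CPM and 155 to 177 CPM. The 2 of 4 leukocyte markers with a row, Ptprc and Cd68, summed to 5.95 to 7.19 CPM and 14.9 to 15.3 CPM. The markers differed in direction, with Ptprc at 3.62 to 4.47 and 13.0 to 14.0 CPM and Cd68 at 1.93 to 2.72 and 1.31 to 2.03 CPM. Endothelial markers were at most 0.797 CPM, and none of the 4 intercalated cell markers had a row. The part of these markers in the results below was not tested. In bulk RNA, fewer cells of a type and less RNA per cell cannot be told apart.

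Each of the 8 genes has its own locus on GRCm38, the assembly also called mm10, per the GENCODE M21 annotation. Phgdh (ENSMUSG00000053398) lies on chromosome 3 from 98313170 to 98339990, Psat1 (ENSMUSG00000024640) on chromosome 19 from 15904678 to 15947337, and Psph (ENSMUSG00000029446) on chromosome 5 from 129765558 to 129787449. Shmt1 (ENSMUSG00000020534) lies on chromosome 11 from 60788104 to 60811718, and Shmt2 (ENSMUSG00000025403) on chromosome 10 from 127517123 to 127522444. Mthfd1 (ENSMUSG00000021048) lies on chromosome 12 from 76255298 to 76319803, Mthfd1l (ENSMUSG00000040675) on chromosome 10 from 3973118 to 4167081, and Mthfd2 (ENSMUSG00000005667) on chromosome 6 from 83305691 to 83325908. Over 84.3% of its longest transcript, Phgdh is at least 98% identical to another annotated gene, Gm7901, which has no row among the counts. How reads that match both genes were counted is not given in the sources used here, so the Phgdh counts are uncertain to that extent. Psph shares 10.44% of its exonic bases with Cct6a on the opposite strand and Shmt1 shares 4.74% with Smcr8. Whether counting used strand is not given in the sources used here, so reads there cannot be told apart. The other 5 genes share at most 1.03% of their exonic bases and none of their transcript sequence by this measure.

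The 250 bases before each RefSeq start of the 8 genes were searched on both strands for 3 motifs that do not overlap one another, because most members varied together between libraries, as described below. RefSeq (GRCm38.p6) gave 9 such windows, with 2 for Psat1. TGGAAA, the core of the tonicity element bound by NFAT5, was found in 2 of the 9 windows and in 18.6% of all 32851 promoter windows. The C/EBP-ATF response element read by ATF4, searched as TGATGNAA, was in 0 of 9 windows (3.45% of all), and the E-box CACGTG was in 0 of 9 (6.02% of all). For both matches 86 bases of the window, the match and 40 bases on each side, are shown 5′ to 3′ on the strand of the gene with the match in capitals. The stretch of Phgdh, at chr3:98340120-98340205 on the minus strand, has the match on the opposite strand, 196 to 191 bases before the start. The stretch of Shmt2, at chr10:127522600-127522685 on the minus strand, has it on the strand of the gene, 201 to 196 bases before the start.
Phgdh: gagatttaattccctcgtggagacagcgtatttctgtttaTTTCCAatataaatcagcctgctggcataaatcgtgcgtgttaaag
Shmt2: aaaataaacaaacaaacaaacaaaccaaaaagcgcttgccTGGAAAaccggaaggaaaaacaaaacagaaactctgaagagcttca
These 2 genes had log2 fold changes of opposite sign between the groups, 0.09 for Phgdh and -0.22 for Shmt2, and neither passed the test. In the fits with the library number described below both were called, with opposite signs when it was centred (0.09 and -0.22) and with the same sign under a linear drift (0.40 and 0.18). A match describes letters in a window and no binding was measured.

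Levels were first compared between the enzymes within a group, as CPM per kilobase of the longest annotated transcript. Phgdh was the most abundant in both groups, at 202 ± 20.1 in control and 214 ± 10.2 CPM per kilobase in NaCl libraries (SD, n = 4 each). Psat1 at 80.5 ± 7.92 and Shmt2 at 78.5 ± 8.30 CPM per kilobase followed in control (SD, n = 4 each), with ranges that overlapped. In NaCl libraries Psat1 lay at 81.9 to 93.9 and Shmt2 at 60.8 to 73.0 CPM per kilobase, with no overlap. The next in order were Mthfd2 at 45.3 ± 5.12 and Mthfd1 at 34.8 ± 3.29 CPM per kilobase in control, whose ranges met between 39.3 and 39.5. Mthfd1l followed at 27.9 ± 0.983 CPM per kilobase. Psph at 16.2 ± 2.78 and Shmt1 at 12.4 ± 0.795 CPM per kilobase were lowest and overlapped. The order of the means was the same in NaCl libraries, where Mthfd1l was at 20.9 ± 4.87 CPM per kilobase and its range (14.5 to 25.0) overlapped that of Psph (10.51 to 15.09). With the mean annotated transcript length in place of the longest, Psph lay above Mthfd1l in both groups (46.8 against 35.5 CPM per kilobase in control), and the leading 5 places kept their order. In NaCl libraries Shmt1 (30.3) then also lay above Mthfd1l (26.7), which was lowest. The longest annotated transcript of Psph has 2877 bases in only 2 exons, and the mean over its transcripts is 994 bases. Its place among the enzymes thus depends on the length used.

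**Figure D1:**
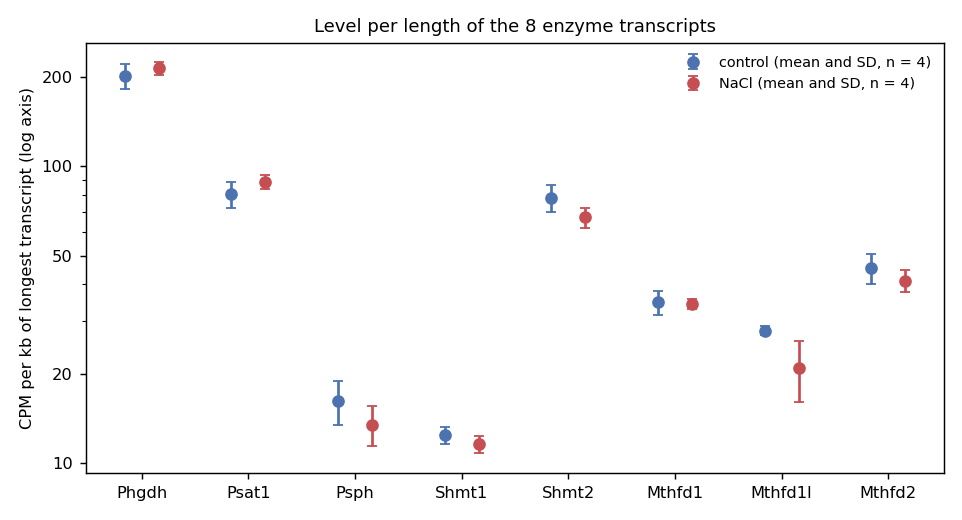
Level of the 8 enzyme transcripts in CPM per kilobase of the longest annotated transcript, on a log axis, as mean and SD of 4 control (blue) and 4 NaCl (red) libraries. Phgdh lies highest, at 202 in control and 214 in NaCl libraries, and Shmt1 lowest by this length, at 12.4 and 11.6.

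Between the groups, none of the 8 enzymes passed the test. By the edgeR quasi-likelihood F test, with p-values adjusted by Benjamini-Hochberg over all genes, 0 of 8 had an adjusted p-value under 0.05, where 34.1% of all 14024 genes did (16.9% higher and 17.2% lower with NaCl). At an unadjusted p-value under 0.05 it was 2 of 8 (Shmt2 and Mthfd1l), where 43.3% of all genes passed. Other tools gave 2 of 8 with DESeq2 (Shmt2, adjusted p = 0.00781, and Mthfd1l, 0.0454) where 33.4% of all genes were called, and 0 of 8 with limma-voom, where 34.3% were. In the main fit 2 of the 8 fold changes were above 0 and 6 below, with a median log2 fold change of -0.12, against 0.00287 over all genes. The median absolute log2 fold change was 0.14 for the enzymes and 0.14 for all genes, and 0.28 for the genes that were called. The median standard error was 0.0725 for the enzymes and 0.0656 for all genes. A p-value that misses the threshold does not show equal levels, and the intervals below give what the data allow.

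Leaving out a single library changed this count. Without control replicate 3 Shmt2 was called, and without control replicate 1 Psat1 was. Without control replicate 4 Shmt2 and Mthfd2 were called, and without NaCl replicate 5 Shmt2 and Mthfd1l were. Without any of the other 4 libraries the count stayed at 0. In the same refits the share of all genes called was 31.4% without control replicate 1, 28.7% without 2, 30.3% without 3 and 32.6% without 4. It was 30.6% without NaCl replicate 5, 28.9% without 6, 29.4% without 7 and 30.7% without 8, so that 2 of 8 enzymes is no more than the share over all genes.

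**Figure D2:**
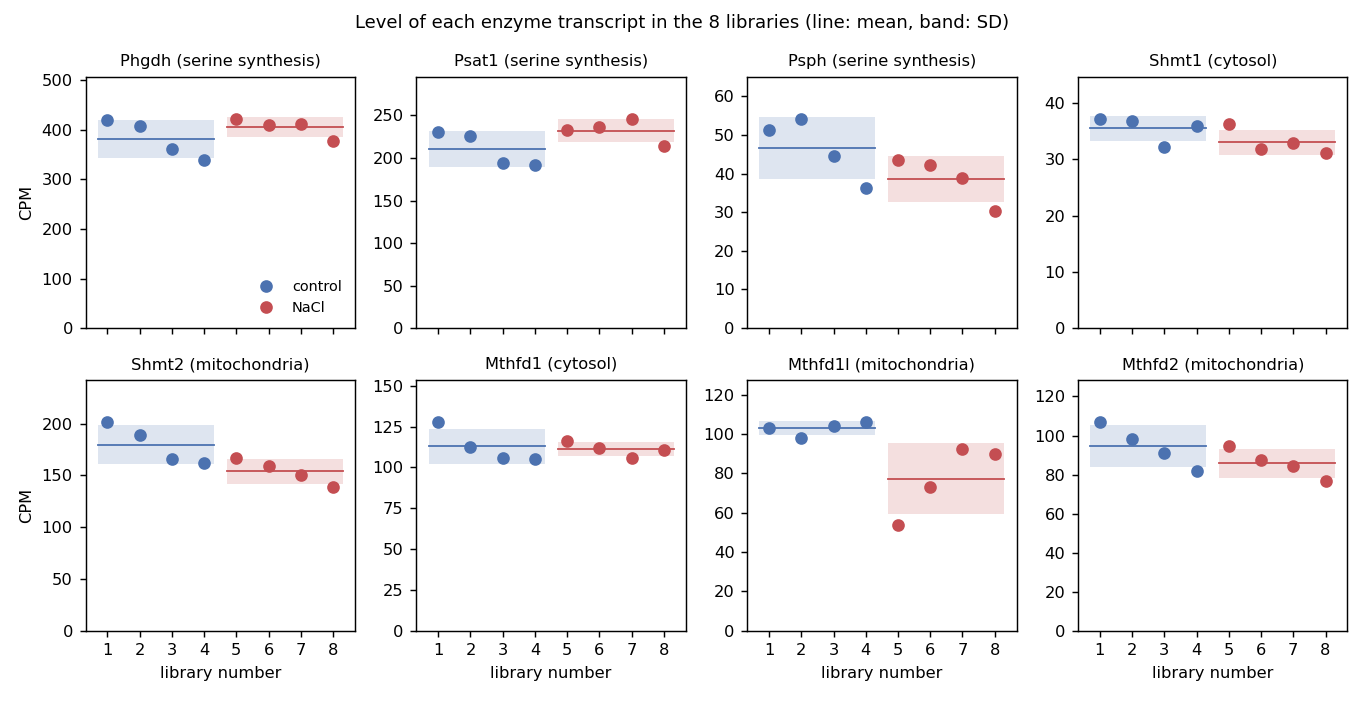
CPM of each enzyme transcript against library number, with control libraries 1 to 4 in blue and NaCl libraries 5 to 8 in red. Points are libraries, lines are group means and bands are SD (n = 4 each). Only for Mthfd1l do the groups not overlap, and its NaCl libraries spread from 53.6 to 92.3 CPM.

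Phgdh, the entry enzyme of serine synthesis, had 420, 408, 361 and 340 CPM in control replicates 1 to 4 and 422, 411, 412 and 378 CPM in NaCl replicates 5 to 8. The groups overlapped, and control replicates 3 and 4 lay below all NaCl libraries. The difference was 6.2% with an interval from -3.8 to 17.1% (edgeR log2 fold change 0.09, SE 0.064, adjusted p = 0.340). Without control replicate 4 the log2 fold change was 0.03, and without control replicate 1 it was 0.13.

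Psat1, the aminotransferase that follows, had 231, 226, 194 and 191 CPM in control replicates 1 to 4 and 233, 236, 246 and 214 CPM in NaCl replicates 5 to 8. Only NaCl replicate 8 fell within the control range, and the other 3 lay above every control library. The difference was 10.2% with an interval from -0.3 to 21.9% (edgeR log2 fold change 0.14, SE 0.066, adjusted p = 0.127). Without control replicate 1 it was 0.19 and was called (adjusted p = 0.0381).

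Psph, the phosphatase that ends the pathway, had 51.4, 54.1, 44.5 and 36.2 CPM in control replicates 1 to 4 and 43.4, 42.2, 38.9 and 30.2 CPM in NaCl replicates 5 to 8. Its means were 46.55 ± 7.997 and 38.7 ± 5.95 CPM (SD, n = 4 each), so the spread within each group was near the size of the difference. The interval of the change ran from -36.0 to 7.6% around -17.0% (edgeR log2 fold change -0.27, SE 0.16, adjusted p = 0.244). Without NaCl replicate 8 the log2 fold change was -0.17, and without control replicate 4 it was -0.37.

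Shmt2, the mitochondrial serine hydroxymethyltransferase, had 202, 189, 166 and 162 CPM in control replicates 1 to 4 and 167, 159, 151 and 139 CPM in NaCl replicates 5 to 8. NaCl replicate 5 was the single NaCl library above the lowest controls. The difference was -14.3% with an unadjusted interval from -24.3 to -3.1% (edgeR log2 fold change -0.22, SE 0.079, adjusted p = 0.0555). With median-of-ratios size factors, under which 34.2% of all genes were called, the adjusted p-value was 0.0498, on the other side of the threshold. Shmt1, its cytosolic counterpart, had 37.2, 36.8, 32.2 and 35.9 CPM in control and 36.2, 31.8, 32.8 and 31.2 CPM in NaCl libraries. The ranges overlapped, and the difference was -7.1% (interval -15.1 to 1.6%, log2 fold change -0.11, SE 0.061, edgeR adjusted p = 0.197).

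Mthfd1, the trifunctional cytosolic enzyme, had 128, 112, 106 and 105 CPM in control replicates 1 to 4 and 116, 112, 106 and 111 CPM in NaCl replicates 5 to 8. All NaCl libraries lay inside the control range. The interval of the change was -9.5 to 7.1% around -1.5% (log2 fold change -0.02, SE 0.057, edgeR adjusted p = 0.795). Without single libraries the log2 fold change ran from -0.06 (without control replicate 4) to 0.04 (without control replicate 1). This is the narrowest interval of the 8 genes.

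Mthfd1l, the mitochondrial formate-releasing enzyme, was the single member whose groups did not overlap, a property of 33.4% of all genes tested. It had 103, 97.7, 104 and 106 CPM in control replicates 1 to 4 and 53.6, 72.8, 92.3 and 90.0 CPM in NaCl replicates 5 to 8. The control mean was 103 CPM with an SD of 3.62, and the NaCl mean was 77.2 CPM with an SD of 17.96 (n = 4 each), with NaCl replicate 5 lowest. The difference was -24.9% with an unadjusted interval from -43.5 to -0.1% (edgeR log2 fold change -0.41, SE 0.17, adjusted p = 0.115). Without NaCl replicate 5, the library with the lowest total, the log2 fold change was -0.27 and the call was made (adjusted p = 0.0121).

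Mthfd2, the mitochondrial dehydrogenase, had 107, 98.1, 91.1 and 81.9 CPM in control replicates 1 to 4 and 94.5, 87.6, 84.2 and 76.8 CPM in NaCl replicates 5 to 8. The ranges overlapped between 81.9 and 94.5 CPM. The difference was -9.3% (interval -20.6 to 3.4%, log2 fold change -0.14, SE 0.085, edgeR adjusted p = 0.236). The log2 fold change was -0.08 without control replicate 1, -0.09 without NaCl replicate 8 and -0.21 without control replicate 4.

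After removal of the group means, 7 of the 8 enzymes varied together over the 8 libraries, and 6 of them varied with the library number in the labels. What the number stands for is not given in the sources used here, and it is used only as a label. Deviations from the group means correlated positively for all 21 pairs among the 7 genes other than Mthfd1l, with Pearson's r from 0.48 to 0.97 and a median of 0.80 over the 8 libraries of both groups together. The highest was Shmt2 with Mthfd2 (0.97), followed by Phgdh with Shmt2 (0.95). All 7 pairs with Mthfd1l were negative, from -0.62 (Shmt1) to -0.13 (Psat1). These points share their libraries, depth and scaling, and the values are descriptions.

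A fit that added the number, centred per group, gave its coefficient as a log2 change per unit of the number. Of the 8 enzymes 6 were called on this coefficient, all 6 lower at higher numbers, where 13.2% of all genes were called and 6.22% in that direction. The coefficient was -0.17 for Psph (SE 0.025, edgeR adjusted p = 3.4e-05), -0.11 for Mthfd2, -0.10 for Shmt2, -0.08 for Phgdh, -0.07 for Psat1 and -0.06 for Mthfd1. Shmt1 had -0.05 (adjusted p = 0.204) and Mthfd1l 0.13 (adjusted p = 0.284).

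In that fit the group differences kept their size but had smaller errors, and 5 of 8 enzymes were called, where 43.0% of all genes were. Phgdh (log2 fold change 0.09, edgeR adjusted p = 0.0127) and Psat1 (0.14, 0.0136) were called higher with NaCl. Psph (-0.26, 3.29e-04), Shmt2 (-0.22, 1.74e-07) and Mthfd2 (-0.14, 0.00112) were called lower. The centred number leaves any drift between the groups in place, since all NaCl libraries carry higher numbers than all controls.

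Entering the number from 1 to 8 as a single linear drift is the same model as the centred fit, with its line carried across the groups. Its group differences follow from the centred ones and the coefficients above, and are not a separate result. Read this way, 6 of 8 enzymes were called and all 6 higher with NaCl, where 24.1% of all genes were called in either direction. These were Psph (log2 fold change 0.43, edgeR adjusted p = 0.00796), Psat1 (0.41, 0.00358), Phgdh (0.40, 4.60e-06), Mthfd2 (0.31, 0.00112), Mthfd1 (0.23, 0.0221) and Shmt2 (0.18, 0.0262). Psph, Mthfd2, Shmt2 and Mthfd1 thus had the opposite sign to the fit without a covariate, as did Shmt1 (0.08, 0.660), while Phgdh and Psat1 were above 0 in all 3 fits. Mthfd1l was at -0.95 (0.0784). The group and the library number cannot be told apart in this design beyond what such a straight line assumes.

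**Figure D3:**
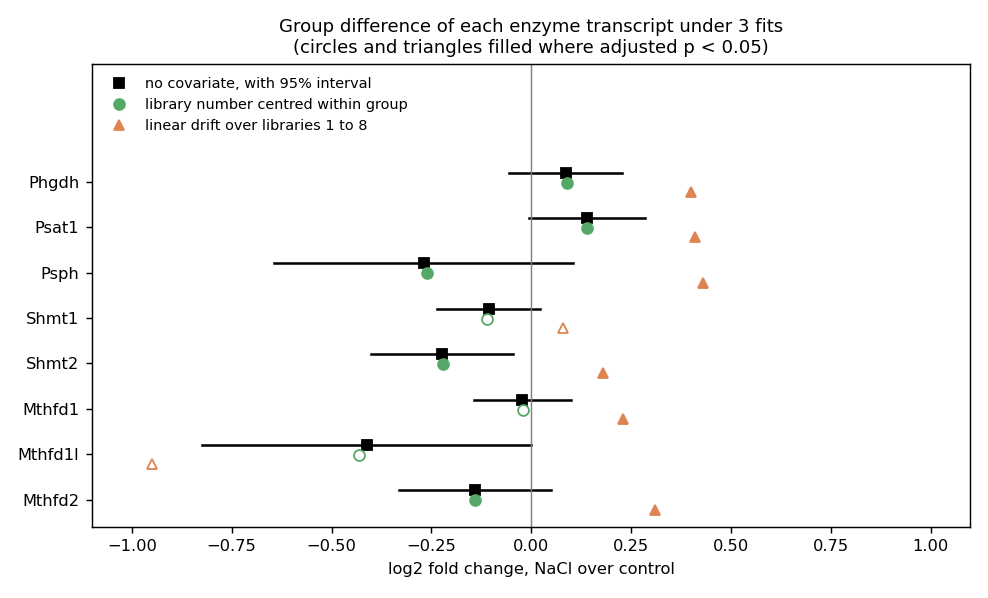
Log2 fold change (NaCl over control) of each enzyme transcript without a covariate (squares, with the 95% interval), with the library number centred within its group (circles) and with a linear drift over libraries 1 to 8 (triangles). Circles and triangles are filled where the adjusted p-value is under 0.05. Phgdh and Psat1 are to the right of 0 under all 3 fits and Psph, Shmt1, Shmt2, Mthfd1 and Mthfd2 change side with the linear drift.

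Ratios of the counts of 2 enzymes within a library do not depend on the scaling between libraries, and 8 were compared by exact two-sided permutation tests over the 8 libraries. The smallest p-value that 4 against 4 libraries can give is 0.0286, and after adjustment over the 8 ratios none was under 0.05. With this floor, an adjusted p-value under 0.05 needed complete separation of the groups in most of the 8 ratios. For 3 ratios the groups did not overlap (exact p = 0.0286, adjusted p = 0.0762 for each), and 2 of these share Psph. How often ratios of other gene pairs do not overlap was not measured, and 33.4% of single genes tested did not. Psph relative to Psat1 was 0.223, 0.239, 0.229 and 0.189 in control and 0.187, 0.179, 0.158 and 0.141 in NaCl libraries, a ratio of 0.753 between the groups. Psph relative to Phgdh was 0.122, 0.133, 0.123 and 0.107 in control and 0.103, 0.103, 0.0943 and 0.0800 in NaCl libraries. Under the linear drift, however, the log2 fold changes of these 3 genes were alike, at 0.43 for Psph, 0.40 for Phgdh and 0.41 for Psat1, so that fit leaves no lower level of Psph relative to either. Mthfd2 relative to Shmt2 was 0.531, 0.518, 0.549 and 0.506 in control and 0.565, 0.550, 0.559 and 0.552 in NaCl libraries, a log2 difference of 0.08. Under the linear drift the log2 fold changes were 0.31 for Mthfd2 and 0.18 for Shmt2, so Mthfd2 stayed higher relative to Shmt2.

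The other 5 ratios overlapped. Psat1 relative to Phgdh lay between 0.538 and 0.563 in control and between 0.551 and 0.596 in NaCl libraries (log2 difference 0.05, exact p = 0.0857, adjusted p = 0.152). Shmt2 relative to Shmt1, the mitochondrial against the cytosolic form, was 4.52 to 5.43 in control and 4.46 to 5.01 in NaCl libraries (exact p = 0.114, adjusted p = 0.152). The log2 differences for Mthfd2 and Mthfd1l relative to Mthfd1 were -0.12 and -0.43 (adjusted exact p = 0.152 and 0.163). Mthfd1l relative to Mthfd2 had a log2 difference of -0.31, with an SD of 0.48 in NaCl libraries (adjusted exact p = 0.314). Without NaCl replicate 5 the log2 differences were -0.10 for Mthfd1l relative to Mthfd2 and -0.24 for Mthfd1l relative to Mthfd1.

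A further pair of ratios was chosen after the values had been seen and is given without a test. Shmt2 relative to Phgdh was 0.480, 0.464, 0.460 and 0.477 in control and 0.396, 0.388, 0.366 and 0.368 in NaCl libraries. Shmt2 relative to Psat1 was 0.874, 0.837, 0.854 and 0.846 in control and 0.719, 0.674, 0.613 and 0.649 in NaCl libraries. In both the control libraries lay close together and the NaCl libraries were all lower, with log2 differences of -0.31 and -0.36. Under the linear drift Shmt2, at a log2 fold change of 0.18, also stayed below Phgdh (0.40) and Psat1 (0.41).

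**Figure D4:**
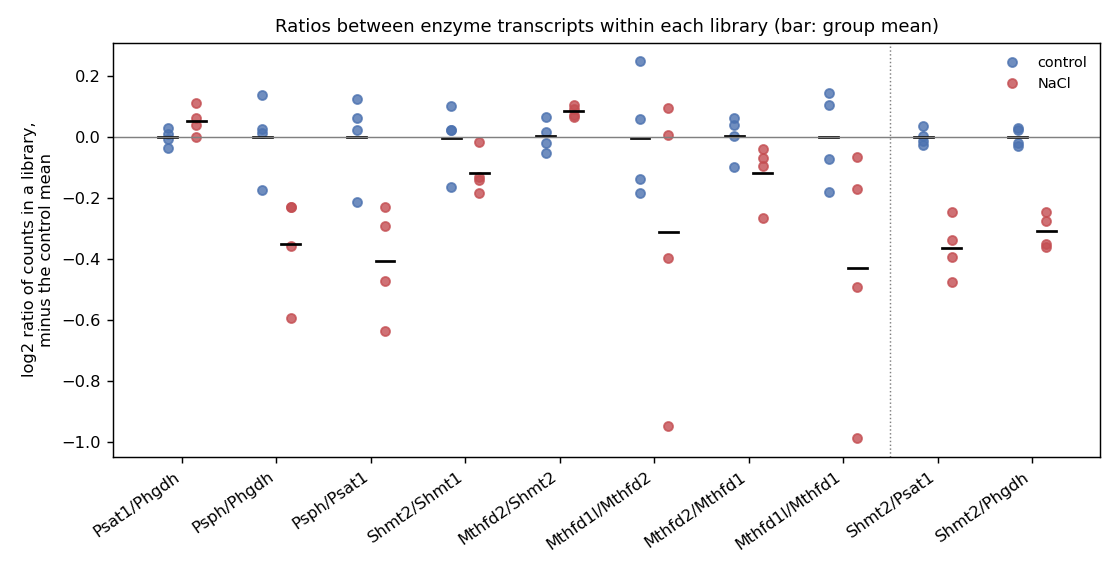
Log2 ratio of the counts of 2 enzymes within each library, minus the control mean, for 4 control (blue) and 4 NaCl (red) libraries, with bars at group means. The 2 ratios right of the dotted line were chosen after the values were seen. Groups do not overlap for Psph over Phgdh, Psph over Psat1 and Mthfd2 over Shmt2 among the 8 tested ratios.

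Genes around the 8 enzymes were described with 10 lists chosen from textbook knowledge, 75 of whose 83 genes were tested. Of these 16 rose, 23 fell and 36 were not called in the same edgeR fit, where 16.9% of all genes tested rose and 17.2% fell. Counts of single lists below are read against these shares and rest on 3 to 14 genes each. Among other folate enzymes and carriers 4 of 14 rose, 1 fell and 9 were not called (median log2 fold change 0.03). The folate receptor gene Folr1 had 6.10, 4.84, 5.97 and 7.64 CPM in control and 15.15, 15.1, 13.9 and 14.8 CPM in NaCl libraries (edgeR log2 fold change 1.26, SE 0.11, adjusted p = 2.01e-07). The proton-coupled folate transporter gene Slc46a1 rose from 7.67 ± 1.28 to 11.9 ± 0.103 CPM (SD, n = 4 each; log2 fold change 0.63, edgeR adjusted p = 1.95e-04). Mtfmt, which formylates the mitochondrial initiator tRNA, rose by 14.4% (log2 fold change 0.19, adjusted p = 0.0254). That call was lost without control replicates 1, 2 or 3 or NaCl replicates 6 or 7 (adjusted p from 0.0525 to 0.0745) and under the linear drift (log2 fold change 0.14, adjusted p = 0.499).

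The isozymes closest to the members gave a mixed picture. Aldh1l2, the mitochondrial enzyme that oxidises formyl-tetrahydrofolate, had 152.5, 156.5, 139 and 141 CPM in control and 103, 128, 135 and 117 CPM in NaCl libraries (log2 fold change -0.28, SE 0.079, edgeR adjusted p = 0.0198). Its call was lost without control replicate 1 (0.0783) or 2 (0.0505), with the centred library number (0.0752) and with the linear drift (0.405), at log2 fold changes from -0.26 to -0.30. Mthfd2l, an isozyme of Mthfd2, was at 24.25 ± 1.495 and 26.01 ± 1.417 CPM (SD, n = 4 each; edgeR adjusted p = 0.245). The cytosolic Aldh1l1 was near 1 CPM in both groups and was not called (adjusted p = 0.607).

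Glycine and methyl group genes were next. In the glycine cleavage system 1 of 4 genes rose, 1 fell and 2 were not called (median 0.06). Gldc, its decarboxylase, had counts of 7, 2, 1 and 7 in the control replicates and of 23, 25, 26 and 25 in the NaCl replicates, a low level throughout (0.0960 and 0.615 CPM; log2 fold change 2.62, SE 0.47, edgeR adjusted p = 4.06e-04). Gcsh, its carrier protein, fell by 11.4% (log2 fold change -0.17, adjusted p = 0.0294), and the call was lost without control replicates 1 or 2 or NaCl replicates 7 or 8 (0.0655 to 0.0968). Under the linear drift Gcsh was at 0.05 (0.795). Of 3 tested choline oxidation genes 1 rose and 2 were not called (median -0.01). This was Chdh, which makes the betaine precursor from choline, with 100.2, 104, 109 and 125 CPM in control and 215, 199.9, 196 and 207.5 CPM in NaCl libraries (log2 fold change 0.90, SE 0.061, edgeR adjusted p = 1.94e-07).

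Of 9 methionine cycle and transsulfuration genes 4 rose, 2 fell and 3 were not called (median 0.08). Mtr, the methionine synthase that uses methyl-tetrahydrofolate, rose from 37.6 ± 2.11 to 50.1 ± 4.44 CPM (SD, n = 4 each; log2 fold change 0.41, edgeR adjusted p = 6.91e-05), and was at 0.67 under the linear drift (1.08e-06). Ahcyl2, related to S-adenosylhomocysteine hydrolase, rose by 15.5% (adjusted p = 0.00409) and was at a log2 fold change of 0.21, or 0.12 under the linear drift, where it was not called (0.382). Ahcy, that hydrolase, fell by 17.0% (log2 fold change -0.27, adjusted p = 0.00343). Its coefficient of the library number was -0.07 (adjusted p = 0.00803), and under the linear drift its log2 fold change was -0.01 (adjusted p = 0.973). Cth, the last enzyme of cysteine synthesis from serine and homocysteine, had 29.9, 32.1, 23.3 and 21.05 CPM in control and 20.4, 17.0, 19.5 and 14.9 CPM in NaCl libraries (log2 fold change -0.57, SE 0.15, edgeR adjusted p = 0.0149). Its coefficient of the library number was -0.16 (adjusted p = 0.00268), and under a linear drift its log2 fold change was 0.08 (adjusted p = 0.795).

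Serine carriers moved in both directions, with 1 of 6 higher, 2 lower and 3 not called (median -0.09). Slc38a2, a sodium-coupled carrier of small neutral amino acids, rose (log2 fold change 0.54, SE 0.034, edgeR adjusted p = 3.84e-09). Slc1a5, a neutral amino acid exchanger, fell from 73.0 ± 3.84 to 52.6 ± 2.38 CPM (SD, n = 4 each; log2 fold change -0.47, adjusted p = 1.03e-06), and was at -0.29 under the linear drift (0.00653). Sfxn1, the mitochondrial serine carrier that feeds SHMT2, had 73.7, 69.97, 71.9 and 73.8 CPM in control and 58.1, 60.0, 59.3 and 62.2 CPM in NaCl libraries (log2 fold change -0.27, SE 0.040, edgeR adjusted p = 5.91e-05). None of 6 tested enzymes that use or degrade serine was called (median 0.01).

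De novo purine synthesis, which consumes one-carbon units from folate, had 7 of 9 genes lower, 2 higher and 0 not called (median -0.20). Impdh2, which commits purines to guanine nucleotides, had 110.5, 110.0, 104 and 103 CPM in control and 82.9, 84.0, 87.5 and 87.4 CPM in NaCl libraries (log2 fold change -0.32, SE 0.039, edgeR adjusted p = 7.38e-06). Adsl, which acts at 2 points of the route, fell by 18.5% (adjusted p = 3.66e-05), Pfas fell by 15.8% (0.00211) and Impdh1 fell by 14.8% (0.0129). The 2 that rose, named after their values were seen, were Ppat, the first enzyme (log2 fold change 0.13, adjusted p = 0.0242), and Paics (0.09, 0.0290). The Ppat call was lost without control replicates 3 or 4 or NaCl replicates 5 or 6 (highest adjusted p 0.0793), and the Paics call without control replicates 2 or 3 or NaCl replicate 5 (highest 0.0993). Under the linear drift Ppat was at 0.31 (8.11e-04) and Paics at 0.13 (0.0750). With a linear drift over libraries 1 to 8, 2 of the 9 were called, and Adsl (log2 fold change -0.15, adjusted p = 0.149), Pfas (-0.11, 0.468) and Impdh1 (-0.28, 0.112) were not.

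For the ATF4 list outside the pathway 2 of 13 rose, 7 fell and 4 were not called (median -0.11). Slc7a11, a cystine carrier gene, fell from 8.26 ± 1.33 to 4.41 ± 0.696 CPM (SD, n = 4 each; log2 fold change -0.90, edgeR adjusted p = 7.99e-05), and was at -0.39 under a linear drift and not called (0.262). Asns, asparagine synthetase, had 123, 125, 108 and 108 CPM in control and 82.3, 81.7, 81.75 and 71.6 CPM in NaCl libraries (log2 fold change -0.55, SE 0.059, edgeR adjusted p = 9.24e-06). Its coefficient of the library number was -0.07 (adjusted p = 0.00366), and under the linear drift its log2 fold change was -0.27 (0.00844). Nupr1 (0.80, adjusted p = 8.74e-11) and Fgf21 (0.52, 0.0138) rose, and Fgf21 was at 0.43 under a linear drift and not called (0.408). Atf4 itself, named after its value was seen, fell by 6.7% (log2 fold change -0.10, edgeR adjusted p = 0.0367). That call was lost without control replicates 1 or 2 or any single NaCl replicate (highest adjusted p 0.105), with library totals alone, and under the linear drift (-0.01, 0.949).

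Among 6 genes for regulators of serine synthesis 1 rose, 3 fell and 2 were not called (median -0.11). Nfat5, the tonicity factor whose core motif was searched above, rose by 21.5% (log2 fold change 0.28, edgeR adjusted p = 3.96e-05). Myc (-0.16, 0.0220), Mycn (-0.38, 0.0351) and Mdm2 (-0.12, 0.0267) fell. The Myc call was lost without control replicate 4 or NaCl replicates 5, 6 or 7 (adjusted p from 0.0522 to 0.0711). The Mycn call was lost without control replicates 2, 3 or 4 or NaCl replicates 5, 6 or 7 (0.0565 to 0.119) and with limma-voom (0.0532). The Mdm2 call was lost without control replicates 1 or 2 or NaCl replicates 6 or 8 (0.0599 to 0.0761) and with library totals alone (0.0573). Under the linear drift Myc was at -0.36 (0.00193), Mycn at -0.93 (0.00128) and Mdm2 at -0.01 (0.937).

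None of 5 lower glycolysis genes, which supply and drain 3-phosphoglycerate, was called between the groups (median -0.07). All 5 were called on the library number, higher at higher numbers, where 13.2% of all genes were called in either direction. The coefficients ran from 0.14 (Pgam1) to 0.25 (Pgk1). The linear drift carries those coefficients across the groups. Under it all 5 were called lower with NaCl, where 24.1% of all genes were called in either direction. Log2 fold changes were -1.26 for Pgk1, -0.94 for Gapdh, -0.76 for Eno1, -0.66 for Pgam1 and -0.53 for Pkm (edgeR adjusted p from 1.19e-04 to 0.0250). These values follow from the coefficients and the centred differences, which ran from -0.27 (Pgk1) to 0.15 (Pkm). Pkm was at 0.16 in the main fit and was called higher with the centred number (edgeR adjusted p = 0.00317). Gapdh, named after its values were seen, had 2952, 3295, 3990 and 4079 CPM in control replicates 1 to 4 and 2460, 3107, 3662 and 4120 CPM in NaCl replicates 5 to 8. Its coefficient of the library number was 0.21 (edgeR adjusted p = 3.97e-04), where that of Shmt2 was -0.10.

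**Figure D5:**
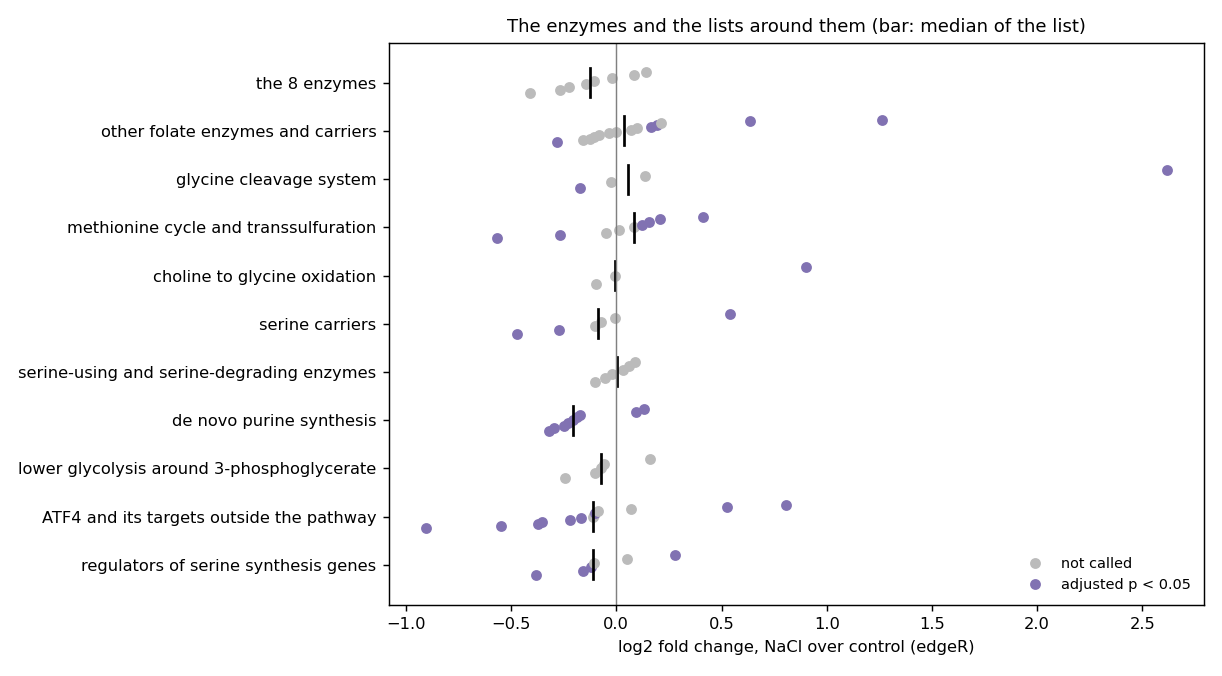
Log2 fold change (NaCl over control, edgeR) of the 8 enzymes and of the tested genes of 10 lists around them, with purple points at an adjusted p-value under 0.05, grey points not called and a bar at the median of each list. No point of the 8 enzymes is purple, while all 9 purine synthesis genes are, 7 of them left of 0.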

How the data were processed

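Bulk RNA from 8 libraries was analysed, 4 per group. The authors deposited raw counts per Ensembl gene, and a signal that equals the raw count divided by 1 factor per library (0.8643 to 1.145). The submitters' processing notes list Trim Galore 0.6.7, STAR, DESeq2 1.34.0 and build mm10. The counting program and strandedness are not given in the sources used here.

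Counts were tested in R 4.3.3 with edgeR 4.0.16: filterByExpr by group (minimum count 10), TMM scaling, robust quasi-likelihood F tests on group, and Benjamini-Hochberg adjustment over 14024 genes, called under 0.05. The filter removed 1264 genes with 0.0191% of counts. CPM used TMM-scaled totals, and log2 CPM a prior count of 2. Intervals are 95%, unadjusted. All 12 replicate pairs differed by more than counting noise. Alternatives used DESeq2 1.42.0, limma 3.58.1, other scalings and filters, the library number as a covariate, and each library left out. Shared sequence was measured with blastn 2.17.0 (at least 75 bases at 98% identity). Counts were also simulated with 200 genes changed and no trend with the library number, unlike the data, where 34.1% of genes were called. In them (13895 genes tested), 60.4% of genes changed by 0.3 log2 and 84.0% of those changed by 0.5 were recovered. Of 165 calls 3.64% were false. These shares describe that setting and may not hold for the data.

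The members and lists were chosen with earlier results of these data known. The naming rule took all 8 enzymes, up to 4 called genes per list with the largest absolute log2 fold change, Mthfd2l, Aldh1l1 and Aldh1l2, and for each enzyme the gene most alike over the libraries.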

Additional observations from a re-analysis of the deposited data

Results flagged for a closer look

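Each of 94 sets of 4 values was searched for a library far from its 3 companions (the 8 enzymes, their ratios, the named genes of the lists and total counts). Chance gives about 4.7 such sets and 4 were found. None was a value of the 8 enzymes or of their ratios. Total counts were 47.57 M in control replicate 1, against 41.77 to 42.73 M for the remaining controls, and 35.29 M in NaCl replicate 5, where the others had 41.37 to 42.39 M. The Asns level was 71.58 CPM in NaCl replicate 8 and 81.68 to 82.27 CPM in its 3 companions. Nupr1 had 156.1 CPM in control replicate 3, where the other controls had 160.9 to 161.4 CPM.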

How the results depend on the processing

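Over 144 refits of the 8 enzymes 120 kept direction and side of the threshold, 21 passed it and 7 changed sign, 4 of which are among the 21. The number of enzymes called, 0 in the main fit, was 1 with median-of-ratios factors, 1 with limma on the authors' normalized values (log2, pseudocount 1), 2 with DESeq2, 5 with the centred library number, 6 with a linear drift, and 0 to 2 without single libraries. All genes called in the same refits numbered 4794, 4816, 5104, 6030, 3382 and 4071 to 4634. With the drift the sign changed for the enzymes Psph (0.43), Shmt1 (0.08), Shmt2 (0.18), Mthfd1 (0.23) and Mthfd2 (0.31). Of the 28 named genes of the lists it changed for Gcsh (0.05) and Cth (0.08). Mthfd1 ran from -0.06 to 0.04 without single libraries. What makes levels vary with the library number was not tested. All genes called fell from 4789 to 3145 at an adjusted p-value under 0.01. At that threshold 2 of 5 called other folate genes, 1 of 2 glycine cleavage, 3 of 6 methionine cycle and 1 of 4 regulator genes passed. With the drift the calls were 1 in glycine cleavage, 2 in the methionine cycle, 2 in choline oxidation, 2 in purine synthesis and 5 in the ATF4 list. Lower glycolysis had 5 with the drift, all lower, 1 with the centred number (Pkm, higher) and 0 in the main fit. Glycine cleavage had 1 call with library totals alone and 1 with at least 10 counts in every library, where Gldc is not tested. Without single libraries, calls ran from 2 to 5 for other folate genes, 1 to 2 for glycine cleavage and 1 to 4 for regulators. The ratios kept their sign without each library, with log2 differences from -0.48 to -0.33 for Psph over Psat1 and -0.42 to -0.27 for Psph over Phgdh. The other tested ratios ran from -0.44 to -0.10 for Mthfd1l over Mthfd2, -0.55 to -0.24 for Mthfd1l over Mthfd1, -0.17 to -0.08 for Shmt2 over Shmt1, -0.15 to -0.07 for Mthfd2 over Mthfd1, 0.06 to 0.10 for Mthfd2 over Shmt2 and 0.03 to 0.07 for Psat1 over Phgdh. Of 503 refits of the 28 named genes of the lists, 462 kept their call, 39 lost it and 2 changed sign. No paired analysis was possible because the groups share no replicate number. Depth limits Gldc, at 1 to 7 control counts.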

Other observations

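For each enzyme the gene with the most similar log2 CPM over the 8 libraries was looked up among 10110 others whose mean log2 CPM was 3 or more. Shmt2 was most alike to the mitotic cyclin gene Ccnb1 (Pearson's r = 0.992), Psat1 to Tubgcp2 (0.992), Phgdh to the fatty acid desaturase gene Fads2 (0.986) and Mthfd1l to the collagen prolyl hydroxylase gene P4ha1 (0.985). Shmt1 was most alike to Msrb3 (0.981), Mthfd2 to Zfp207 (0.978), Psph to the chaperone gene Dnaja1 (0.972) and Mthfd1 to Ahctf1 (0.948). Each is the highest of many values over only 8 libraries that share scaling and group, and is a description. Of these 8 genes Ccnb1 (log2 fold change -0.24, edgeR adjusted p = 0.0200) and P4ha1 (-0.35, 0.0325) were called, both lower with NaCl.

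Mthfd1l stood apart from the other 7 enzymes in its relation to lower glycolysis genes. Its deviations from the group means correlated with those of Pgam1 at 0.94, of Eno1 at 0.89, of Pgk1 at 0.88 and of Gapdh and Pkm at 0.83 (Pearson's r over 8 libraries). For the other 7 enzymes all such values were negative, from -0.93 for Shmt2 with Gapdh to -0.43 for Psat1 with Pgam1. The points share their libraries and scaling, and what sets this common variation was not tested.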
